A study of Mus musculus with 4 samples.

Results

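The genes that build and remodel the matrix around vessels were followed across the endothelial cells of the neonatal mouse ear and the pericyte-like cells sorted with them. The set holds 43 genes, taken by symbol from the 31054 features of the gene matrices, and all 43 were found. It covers 13 collagens, 10 genes of the laminin, nidogen, Hspg2 and Sparc group, 10 integrins, and 10 proteases and inhibitors. Cells came from the ears of C57BL/6 mice at postnatal day 8, and no allele other than the sorting reporter and its recombinase is named. Live cells positive for CD31 and for Rtom, the reporter of the Cdh5CreERT2 recombinase, which the endothelial Cdh5 promoter drives, were sorted and sequenced with the 10x 3' v3 chemistry. The labels call the 2 libraries biological replicates of 1 group and do not say how many animals went into each. Comparisons therefore set classes of cells side by side, and the p-values rest on how far 2 libraries spread. Adult and wounded ears, which the labels also mention, were not analysed here.

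Endothelial cells rest on a basement membrane, a thin sheet in which a collagen IV network and a laminin network are joined by nidogens and the heparan sulfate proteoglycan perlecan (Hspg2). Each laminin is a trimer of an alpha, a beta and a gamma chain, and vessels are known for alpha 4 and alpha 5 laminins. Fibrillar collagens (types I, III and V) and collagen VI form the interstitial matrix, and in vessels they come mainly from mural and connective tissue cells. Integrins are receptors of 1 alpha and 1 beta chain that bind this matrix, while metalloproteases of the Mmp and Adamts families cut it and Timp proteins inhibit them.

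Cells were placed in 6 classes by markers outside the 43 genes: artery-like, vein-like, capillary-like, tip-like (sprouting), lymphatic-like and pericyte-like. Of 1498 and 2239 cells kept in libraries 1 and 2, 1029 and 1514 fell in a class, and most of the others (426 and 664) met no gate. The margin between blood classes is a range, since 252 of 994 and 380 of 1360 blood endothelial cells lay within 0.25 of it. UMIs (unique molecular identifiers, 1 per captured transcript) were summed per class and library, from 1140503 to 7026253 UMIs a sum. Levels are UMIs of a gene per 1000000 UMIs of the sum (CPM), always given for library 1 and then library 2. In 3' counts transcript length plays little part, but capture differs between genes, so levels were compared between classes and not between genes. The 8 endothelial markers summed to between 2964 and 5631 CPM in endothelial classes, and the 10 pericyte markers to 5987 and 5487 CPM in pericyte-like cells against 5.55 to 15.7 CPM elsewhere. The gates build in the pericyte split, since endothelial cells could carry at most 1 pericyte marker and pericyte-like cells needed at least 5. These sums are therefore no check of purity. Fibroblast markers (8 genes) summed to 27.2 and 58.1 CPM in pericyte-like cells and to between 2.63 and 48.6 CPM in endothelial classes. Of these, Pdgfra had no UMI in pericyte-like cells, with Dpt at 13.2 and 25.8 CPM and Dcn at 7.41 and 18.1 CPM. Cells with at least 3 fibroblast markers had been left out of all classes, so the gate in part sets these fibroblast sums. Smooth muscle markers (5 genes) summed to 1718 and 1066 CPM in pericyte-like cells and to at most 82.7 CPM in endothelial classes, with Cnn1 at 0 in pericyte-like cells, and their part in the values of these cells was not tested. Pericyte-like cells also carried 3106 and 2849 CPM of the endothelial markers.

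The collagen IV genes Col4a1 and Col4a2, whose levels moved together across classes, and 4 collagen genes that were highest in pericyte-like cells are shown first by the sequence at their starts. Sequences are RefSeq's on GRCm38.p6, 5′ to 3′ on the strand given. Of the 43 genes, 32 have an entry. Capitals mark CCAAT or GGGCGG on either strand (TATAAA was searched too). Col4a1 (chr8:11198423-11312826, minus strand) and Col4a2 (chr8:11312805-11449287, plus strand) lie head to head, and their first exons overlap by 22 bases, from 11312805 to 11312826. The 30 bases that span both starts, on the plus strand at chr8:11312801-11312830, hold a GGGCGG box.
Col4a1 and Col4a2: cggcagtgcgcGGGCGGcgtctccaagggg
The 100 bases before the RefSeq start of Col1a2 (chr6:4505518-4505617, plus), Col3a1 (chr1:45311438-45311537, plus), Col6a1 (chr10:76726045-76726144, minus) and 1 of 2 starts of Col6a2 (chr10:76623405-76623504, minus) follow, with Hspg2 (chr4:137468703-137468802, plus) and Col15a1 (chr4:47207912-47208011, plus), which were lower in pericyte-like cells without a UMI of the endothelial gene Cdh5. In GENCODE vM21 the gene starts at 4504814 for Col1a2, 76726168 for Col6a1, 137468769 for Hspg2 and 47208161 for Col15a1. For these 4 genes the window and its motifs therefore depend on the RefSeq start.
Col1a2: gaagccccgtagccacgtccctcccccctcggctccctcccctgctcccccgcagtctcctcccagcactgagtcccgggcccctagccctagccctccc
Col3a1: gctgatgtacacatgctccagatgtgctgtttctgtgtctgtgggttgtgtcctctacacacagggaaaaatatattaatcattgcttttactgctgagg
Col6a1: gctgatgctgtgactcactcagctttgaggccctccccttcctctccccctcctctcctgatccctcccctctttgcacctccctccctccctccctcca
Col6a2: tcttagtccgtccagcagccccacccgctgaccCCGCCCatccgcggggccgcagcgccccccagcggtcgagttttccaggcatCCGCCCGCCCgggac
Hspg2: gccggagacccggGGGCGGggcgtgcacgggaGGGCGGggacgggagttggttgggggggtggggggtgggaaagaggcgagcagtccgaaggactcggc
Col15a1: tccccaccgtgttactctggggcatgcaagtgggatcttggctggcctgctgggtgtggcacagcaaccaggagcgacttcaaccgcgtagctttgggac
GGGCGG stood in the printed windows of Col6a2 and Hspg2, and none of the 3 motifs stood in the other 4 or in the second window of Col6a2, which is not printed. That second window (chr10:76623631-76623730) lies directly before the gene start in GENCODE vM21 (76623630), and the printed one lies inside the gene. The printed genes are a selection. Col5a1, also highest in pericyte-like cells, is not printed, and its window held GGGCGG. Over all 32851 promoters, 24.7% of such windows held GGGCGG, 18.9% CCAAT and 5.56% TATAAA. The 32 genes of the set with an entry have 35 such windows, of which 17 (48.6%) held GGGCGG, 4 (11.4%) CCAAT (Col4a2, Itga3, Nid1 and Mmp14) and 1 (2.86%) TATAAA (Adamts1). These matches describe letters and no binding.

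Nearly every gene of the set differed among the endothelial classes. In the edgeR test across the 5 endothelial classes, 39 of the 42 genes that passed the low-count filter varied, where 48.5% of all genes did. The set was chosen with earlier results of these data known. The other 3 were Col1a1, Col1a2 and Col6a2, which are near 0 in endothelium, and Itgb3 did not pass the filter. The smallest adjusted p in each family belonged to Col18a1 (adjusted p = 7.38e-12), Sparc (adjusted p = 4.46e-13), Itga1 (adjusted p = 7.58e-10) and Timp2 (adjusted p = 1.99e-10). Among the 39 genes that varied, the endothelial class with the highest level was the same in both libraries for 30: tip-like for 11, artery-like for 8, lymphatic-like for 5, vein-like for 4 and capillary-like for 2. The shares of these classes over all genes that varied were not computed, so the counts describe the set alone.

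The contrasts differed in size. Pericyte-like cells were higher than the mean of the endothelial classes in 24 genes of the set and lower in 3, where 20% of all genes differed (13.2% higher and 6.74% lower), with a median log2 difference of 0.61 against 0.01 over all genes tested. Artery-like cells were higher than vein-like cells in 16 and lower in 8, against 9.30% and 9.13% of all genes (median 0.39 against -0.01 over all genes tested). Capillary-like cells were higher than the mean of artery-like and vein-like cells in 14 and lower in 11, against 6.20% and 5.99% (median 0.02 against 0.0032 over all genes tested). Tip-like cells were higher than capillary-like cells in 5 and lower in 1, where 1.84% of all genes differed, 0.869% higher and 0.970% lower (median 0.18 against -0.00097 over all genes tested). Without the library block 0 were higher and 1 lower in that last contrast, and with classes from clusters 1 was higher and 2 lower. Lymphatic-like cells were higher than the mean of the 4 blood classes in 13 and lower in 22, against 21.8% and 20.8% (median -0.75 against 0.02 over all genes tested). These contrasts share classes and are not independent. A contrast with the mean of several classes is taken on their log levels, so a gene can pass as higher while a class within that mean stands above. Among the genes called higher in pericyte-like cells, for example, Col4a1, Col4a2 and Col15a1 stood higher in tip-like and capillary-like cells. Lama3, Lamb2 and Col8a1 stood higher in artery-like cells and Timp4 in capillary-like cells.

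**Figure D1:**
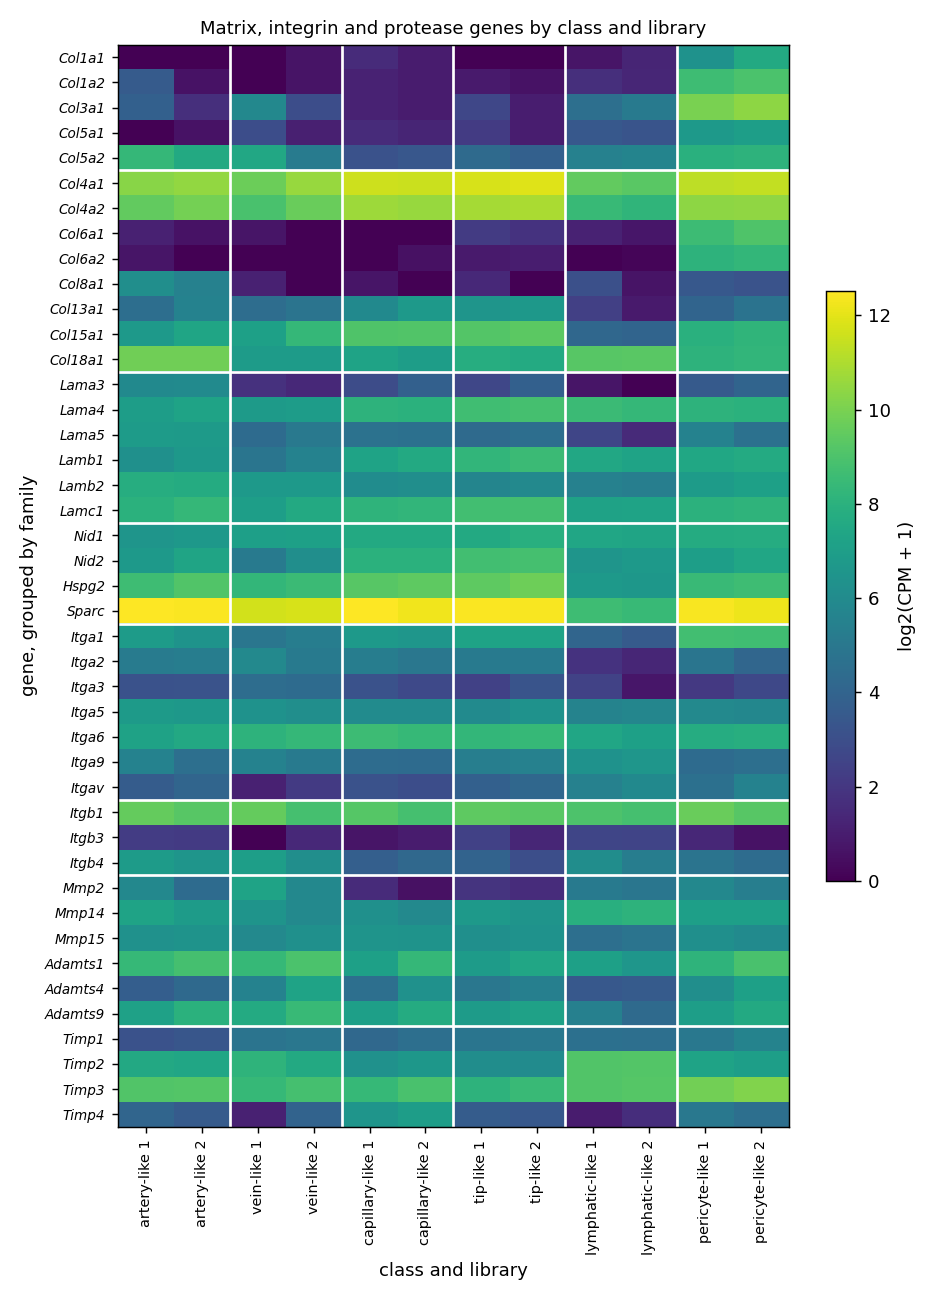
Each row is 1 of the 43 genes, grouped by family, and each column is 1 class in 1 library (the number after the class name), with colour giving log2(CPM + 1). Columns of the same class look alike in both libraries, Sparc, Col4a1 and Col4a2 are the brightest rows, and the fibrillar and type VI collagens are bright in the pericyte-like columns.

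Among the collagens, collagen VI and the fibrillar genes other than Col5a2 stood far above every endothelial class in pericyte-like cells. Against the endothelial mean, all 5 fibrillar genes and both collagen VI genes were higher there, and 11 of the 13 collagens in all, where 13.2% of all genes were, with a median log2 difference of 2.54. Of these 11, Col4a1, Col4a2 and Col15a1 stood higher still in tip-like and capillary-like cells, and Col8a1 in artery-like cells. The calls of Col4a1, Col4a2, Col15a1 and Col8a1 did not hold with only the pericyte-like cells without a Cdh5 UMI, and that of Col8a1, which had 0 and 1 UMIs in those cells, was lost under 4 of the alternatives tried. Col3a1, the chain of type III fibrils, stood at 1022 and 1339.8 CPM in pericyte-like cells, at 56.8 and 6.72 in vein-like, 22.8 and 34.02 in lymphatic-like and 13.5 and 2.2 CPM in artery-like cells, and at no more than 5.26 CPM in tip-like and capillary-like cells. The 2 vein-like sums differ by far, and library 1, the higher, also had more of the fibroblast marker Mfap5 (19.98 against 1.12 CPM) and fibroblast markers summing to 24.98 against 4.48 CPM, whose part was not tested. Col1a2, an alpha chain of type I collagen, stood at 399 and 503 CPM in pericyte-like cells and Col1a1, its partner chain, at 83.1 and 191 CPM. In endothelial classes Col1a2 reached 11.1 CPM in library 1 of artery-like cells and at most 2.24 CPM elsewhere, and Col1a1 at most 1.96 CPM. Col6a1 and Col6a2, chains of the microfibrils of collagen VI, were as sharply split. Col6a1 stood at 382 and 535 CPM in pericyte-like cells and at most 3.51 CPM in any endothelial sum. Col6a2 stood at 268 and 313 CPM and at most 1.01 CPM. No endothelial sum came near the pericyte-like ones. Cells with more than 1 pericyte marker had been left out of the endothelial classes, and the part of that gate in these gaps was not tested.

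The fitted log2 differences were 9.70 ± 0.17 (adjusted p = 2.18e-15) for Col6a1, 10.16 ± 0.19 (adjusted p = 4.10e-15) for Col6a2, 8.48 ± 0.24 (adjusted p = 1.34e-13) for Col1a2 and 8.95 ± 0.26 (adjusted p = 2.90e-12) for Col1a1. They rest on 22, 6, 44 and 18 endothelial UMIs in all, so their size is loose. Without library 1 they were 9.73, 9.48, 8.97 and 8.31, and without library 2 8.40, 9.32, 7.91 and 7.43. As a plainer measure, the lower pericyte-like sum exceeded the highest endothelial sum 266 times for Col6a2, 109 times for Col6a1, 42.4 times for Col1a1, 36.1 times for Col1a2, 17.99 times for Col3a1 and 10.7 times for Col5a1. Col5a1 and Col5a2, chains of the type V collagen that regulates fibril width, parted from each other. Col5a1 stood at 106 and 129 CPM in pericyte-like cells and at most 9.94 CPM in endothelium. Col5a2 stood at 248 and 269 CPM in pericyte-like cells but also at 324 and 191 in artery-like and 179 and 36.4 in vein-like cells, with 44.6 and 49.96 in lymphatic-like, 19.3 and 13.1 in tip-like and 7.84 and 9.56 CPM in capillary-like cells. Library 1 was higher in both large-vessel classes. Within endothelium Col5a2 was higher in artery-like than in vein-like cells (log2 difference 1.32 ± 0.35, adjusted p = 0.0126), with 2.34 without library 1 and 0.86 without library 2, a call lost without the library block and with DESeq2. It was lower in capillary-like cells than in the mean of both (log2 difference -4.13 ± 0.48, adjusted p = 2.20e-05), with -3.11 and -4.90 without each library. Col1a2 passed as higher in artery-like than vein-like cells and Col5a1 as lower, but both rest on library 1, and without it Col1a2 was at -0.05 and Col5a1 at -0.83.

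The pericyte-like cells carried endothelial transcripts, and the values of this class have to be read with that. Of the 92 and 138 cells, 76 and 102 had a UMI of Cdh5, the endothelial cadherin behind the sort, and those cells had medians of 13797 and 13627 UMIs and of 6 and 7 of the 8 endothelial markers. The 16 and 36 cells without a Cdh5 UMI had medians of 6299 and 6119.5 UMIs and of 0 endothelial markers. Only 2 and 11 cells of all had been called doublets. Of the 43 genes, 16 were higher in cells without a Cdh5 UMI in both libraries, 13 were lower in both, 7 had no UMI in them and 7 were mixed. The matching shares over all genes were not computed, so these counts describe the set alone. The cells without a Cdh5 UMI held 105326 and 240851 UMIs in all, and those with one 1109006 and 1583507. Col3a1 was 2.29 and 2.205 times and Col6a1 2.57 and 2.26 times as high without Cdh5. Hspg2 ran the other way, at 388 and 453 CPM with and 85.4 and 58.1 CPM without a Cdh5 UMI. Col15a1 did too, at 269 and 337 and 56.9 and 4.15 CPM. The collagen IV genes stayed close, Col4a1 at 2497 and 2750.0 and 2315 and 2216 CPM, and so did Sparc at 5405 and 4761 and 4764 and 4383 CPM. The 7 genes with no UMI in cells without Cdh5 were Col13a1, Lama3, Itga2, Itga3, Itgb3, Itgb4 and Timp4, at a floor of 28.5 and 12.5 CPM (3 UMIs).

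With only the cells without a Cdh5 UMI in the class, 17 genes of the set were higher than in endothelium and 11 lower, in place of 24 and 3. Over all genes, 2080 differed, in place of 2185. How many of these were higher and how many lower was not counted, so the 17 and 11 describe the set alone. Library 1 held 16 such cells, fewer than the 20 per class and library planned as a minimum. Col6a1 had a log2 difference of 10.66 (adjusted p = 2.29e-16), Col6a2 of 11.27 (adjusted p = 1.46e-15), Col1a2 of 9.17 (adjusted p = 1.23e-13), Col1a1 of 9.57 (adjusted p = 4.11e-11) and Col3a1 of 8.26 (adjusted p = 2.38e-13). Col15a1 had passed as higher with all cells (log2 difference 0.60 ± 0.16, adjusted p = 0.0149) and was lower without Cdh5, at -3.22 (adjusted p = 0.000483). That value rests on 6 and 1 UMIs of Col15a1 in these cells. Lama3 and Timp4 had also passed as higher, and had no UMI left in these cells. Col4a1 and Col4a2 no longer passed, at 0.37 (adjusted p = 0.0725) and 0.23 (adjusted p = 0.343).

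**Figure D2:**
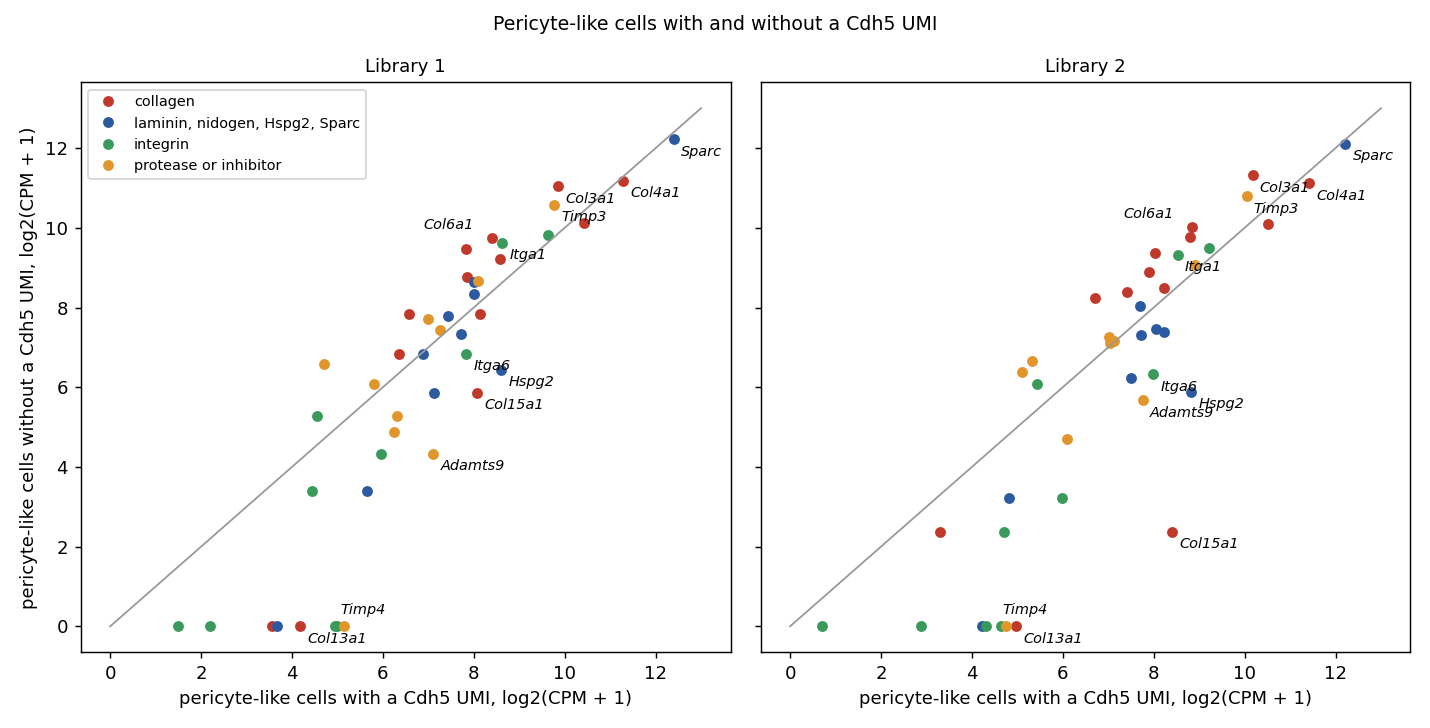
Each point is 1 gene, placed by its level in pericyte-like cells with a Cdh5 UMI (horizontal) and without one (vertical), as log2(CPM + 1), with 1 panel per library and the line marking equal levels. Col3a1, Col6a1, Itga1 and Timp3 lie above the line in both panels, Col4a1 and Sparc near it, Hspg2, Col15a1, Adamts9 and Itga6 below it, and Timp4 and Col13a1 at 0 on the vertical axis.

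The basement membrane collagens divided the blood vessel classes. Col4a1 and Col4a2, which together form the main collagen IV network, were highest in tip-like and capillary-like cells. Col4a1 stood at 3448 and 3849 CPM in tip-like, 3077 and 2972 in capillary-like, 1249.6 and 1461 in artery-like, 846 and 1537 in vein-like and 721 and 636 CPM in lymphatic-like cells. Tip-like and capillary-like sums lay above all others and lymphatic-like sums below all others. Col4a1 was higher in capillary-like cells than in the mean of arteries and veins (log2 difference 1.26 ± 0.14, adjusted p = 1.10e-05), while tip-like and capillary-like cells did not pass a test of their difference (log2 difference 0.24 ± 0.16, adjusted p = 0.613). Col4a2 was lower in lymphatic-like cells than in blood classes (log2 difference -1.83 ± 0.15, adjusted p = 3.63e-08). The ratio of Col4a1 to Col4a2 UMIs stayed between 1.55 and 2.14 over the 12 sums, lowest in artery-like and highest in lymphatic-like cells.

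Col18a1 and Col15a1 encode the related collagens XVIII and XV, whose ends can be cut to endostatin-like fragments, and they differed in opposite directions between artery-like and vein-like cells and between lymphatic-like and blood cells. Col18a1 (chr10:77052178-77166548, minus strand) stood at 895 and 904 CPM in artery-like and 628 and 637 in lymphatic-like cells, at 277 and 306 in pericyte-like, 220.1 and 204 in tip-like, 154 and 123 in capillary-like and 117 and 115 CPM in vein-like cells. No neighbours in that order overlapped. It was 7.73 times as high in artery-like as in vein-like cells (log2 difference 2.93 ± 0.12, adjusted p = 1.47e-10), lower in capillary-like cells than in the mean of both (log2 difference -1.24 ± 0.11, adjusted p = 1.25e-06), higher in tip-like than capillary-like cells (log2 difference 0.60 ± 0.12, adjusted p = 0.0156) and higher in lymphatic-like than blood cells (log2 difference 1.40 ± 0.08, adjusted p = 3.30e-10). The tip-like difference did not pass without the library block or with classes from clusters. Col15a1 (chr4:47208161-47313167, plus strand) stood at 580.4 and 669 CPM in tip-like, 531 and 562 in capillary-like, 136 and 319.7 in vein-like, 107 and 165 in artery-like and 17.3 and 15.2 CPM in lymphatic-like cells. It was lower in artery-like than vein-like cells (log2 difference -0.74 ± 0.22, adjusted p = 0.0283, lost without the library block), higher in capillary-like cells (log2 difference 1.66 ± 0.17, adjusted p = 7.62e-06) and lower in lymphatic-like cells (log2 difference -4.38 ± 0.23, adjusted p = 2.24e-10). The UMI ratio of Col15a1 to Col18a1 therefore ran from 0.0276 and 0.0239 in lymphatic-like and 0.1195 and 0.183 in artery-like cells to 3.44 and 4.56 in capillary-like cells.

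Col8a1, a short-chain collagen of vessel walls, stood at 71.9 and 44.01 CPM in artery-like cells, at 9.88 and 8.22 in pericyte-like, 7.38 and 0.569 in lymphatic-like and at most 1.75 CPM in the other classes. Artery-like cells were higher than vein-like cells (log2 difference 6.51 ± 0.71, adjusted p = 6.35e-06), with 7.67 and 5.62 without library 1 and library 2, set against only 2 UMIs in vein-like cells. Col13a1, a transmembrane collagen, stood at 90.3 and 101 CPM in tip-like, 60.8 and 108 in capillary-like, 22.1 and 45.7 in artery-like, 21.2 and 27.4 in vein-like and 4.17 and 0.854 CPM in lymphatic-like cells. Tip-like and capillary-like sums overlapped. It was lower in lymphatic-like than blood cells (log2 difference -4.79 ± 0.35, adjusted p = 9.31e-09), with -5.85 and -3.23 without each library.

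Laminin chains differed in the class where they were highest. Lama5, Lama3 and Lamb2 were highest in artery-like cells, and Lama4, Lamb1 and Lamc1 in tip-like cells, in both libraries. Lama5, the alpha 5 chain, stood at 116 and 112 CPM in artery-like, 46.1 and 24.7 in pericyte-like, 19.98 and 32.5 in vein-like, 25.5 and 23.4 in capillary-like, 19.3 and 21.7 in tip-like and 5.13 and 1.85 CPM in lymphatic-like cells. Artery-like sums lay above all others. Lama5 was higher in artery-like than vein-like cells (log2 difference 2.08 ± 0.26, adjusted p = 2.26e-05) and lower in lymphatic-like than blood cells (log2 difference -3.58 ± 0.30, adjusted p = 6.16e-08), with -4.19 and -2.66 without each library. Lama3, the alpha 3 chain better known from epithelia, stood at 61.5 and 62.2 CPM in artery-like cells and at most 15.3 CPM elsewhere, and was higher than in vein-like cells (log2 difference 4.86 ± 0.44, adjusted p = 7.45e-07). Lamb2, the beta 2 chain, followed at 222 and 208 CPM in artery-like and 104 and 109 CPM in vein-like cells, and stood at 66.6 and 71.2 in capillary-like, 51.7 and 58 in tip-like and 44.9 and 39.6 CPM in lymphatic-like cells, with no overlap between neighbours. It was higher in artery-like than vein-like cells (log2 difference 1.0 ± 0.12, adjusted p = 2.28e-05), lower in capillary-like cells (log2 difference -1.14 ± 0.12, adjusted p = 7.76e-06) and lower in lymphatic-like cells (log2 difference -1.24 ± 0.11, adjusted p = 7.71e-08).

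Lamb1, the beta 1 chain, ran the other way, at 306 and 373 CPM in tip-like, 154 and 194 in capillary-like, 182 and 153 in lymphatic-like, 76.8 and 102 in artery-like and 28.1 and 45.4 CPM in vein-like cells. Capillary-like cells had more of it than the mean of arteries and veins (log2 difference 1.59 ± 0.14, adjusted p = 1.84e-06) and it was higher again in tip-like than capillary-like cells (log2 difference 0.94 ± 0.15, adjusted p = 0.00297). Lama4, the alpha 4 chain, stood at 409 and 458 CPM in tip-like, 372 and 324 in lymphatic-like, 272 and 258 in capillary-like, 269 and 254 in pericyte-like, 125 and 153 in artery-like and 111 and 119 CPM in vein-like cells. Lama4 was higher in capillary-like cells (log2 difference 1.06 ± 0.10, adjusted p = 4.44e-06) and in tip-like against capillary-like cells (log2 difference 0.70 ± 0.12, adjusted p = 0.00427). Lamc1, the gamma 1 chain shared by most laminins, stood at 420.0 and 444 CPM in tip-like, 286 and 304 in capillary-like, 259 and 319 in artery-like, 127 and 192 in vein-like and 150.1 and 155 CPM in lymphatic-like cells, and was higher in tip-like than capillary-like cells (log2 difference 0.53 ± 0.13, adjusted p = 0.0417). The tip-like differences of Lamb1, Lama4 and Lamc1 did not pass without the library block or with classes from clusters, that of Lamb1 also not with a stricter cell filter, and that of Lamc1 not under 6 of the alternatives tried. Read as ratios of UMIs across classes, Lamb1 to Lamb2 was 0.271 and 0.418 in vein-like, 0.346 and 0.489 in artery-like, 2.304 and 2.73 in capillary-like, 4.05 and 3.87 in lymphatic-like and 5.92 and 6.43 in tip-like cells. Lama4 to Lama5 was 1.08 and 1.37 in artery-like, 5.53 and 3.66 in vein-like, 10.7 and 11 in capillary-like, 21.2 and 21.1 in tip-like and 72.6 and 175 in lymphatic-like cells, where Lama5 was low. In pericyte-like cells Lamb1 (log2 difference 0.55 ± 0.12, adjusted p = 0.00337) and Lamb2 (log2 difference 0.60 ± 0.10, adjusted p = 0.000309) were higher than the endothelial mean, and without Cdh5 UMIs the values were 0.40 (adjusted p = 0.277) and 0.62 (adjusted p = 0.0435).

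Sparc, a collagen-binding glycoprotein, had the smallest adjusted p of the set in lymphatic-like against blood cells. It stood at 5893 and 5510.0 CPM in artery-like, 5749 and 4938 in capillary-like, 5559 and 5371 in tip-like, 5349 and 4711 in pericyte-like, 3304 and 3510.4 in vein-like and 401 and 352 CPM in lymphatic-like cells. The 4 highest classes overlapped, vein-like sums lay below them and lymphatic-like sums far below. Lymphatic-like cells were lower than blood cells (log2 difference -3.73 ± 0.08, adjusted p = 2.12e-14), artery-like cells were higher than vein-like cells (log2 difference 0.72 ± 0.08, adjusted p = 6.81e-06), and pericyte-like cells were higher than the endothelial mean (log2 difference 0.75 ± 0.06, adjusted p = 5.60e-08, and 0.56 (adjusted p = 9.94e-06) without Cdh5 UMIs), which the low lymphatic level pulls down. Hspg2 stood at 680.4 and 854 CPM in tip-like, 614 and 677 in capillary-like, 393 and 549 in artery-like, 318 and 373 in vein-like and 106 and 97.2 CPM in lymphatic-like cells, and was lower in lymphatic-like cells (log2 difference -2.42 ± 0.11, adjusted p = 2.58e-11). Nid2, a nidogen that links laminin to collagen IV, stood at 418 and 448 CPM in tip-like, 251 and 256 in capillary-like, 109 and 160.1 in artery-like, 90.7 and 105 in lymphatic-like and 33.7 and 72.2 CPM in vein-like cells. Nid2 was higher in capillary-like cells (log2 difference 1.59 ± 0.15, adjusted p = 2.92e-06) and in tip-like against capillary-like cells (log2 difference 0.75 ± 0.16, adjusted p = 0.0237, lost without the library block). Nid1, its relative, moved less, from 92.2 and 102 CPM in artery-like to 197 and 236 CPM in tip-like cells, and was higher in pericyte-like cells than in the endothelial mean (log2 difference 0.39 ± 0.09, adjusted p = 0.00308, and 0.45 (adjusted p = 0.0842) without Cdh5 UMIs). In the whole laminin, nidogen, Hspg2 and Sparc group, 8 of 10 were higher and 1 lower in artery-like than vein-like cells (9.30% and 9.13% of all genes), 7 higher and 2 lower in capillary-like cells (6.20% and 5.99%), 4 higher in tip-like cells (0.869%), and 2 higher and 7 lower in lymphatic-like cells (21.8% and 20.8%). At least 1 alternative lost the calls of Hspg2 and Nid1 in the first of these contrasts, of Lama5, Lamc1 and Sparc in the second, of all 4 genes in the third and of Lamb1 in the last, with Hspg2 lost under 4 and Sparc under 5.

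**Figure D3:**
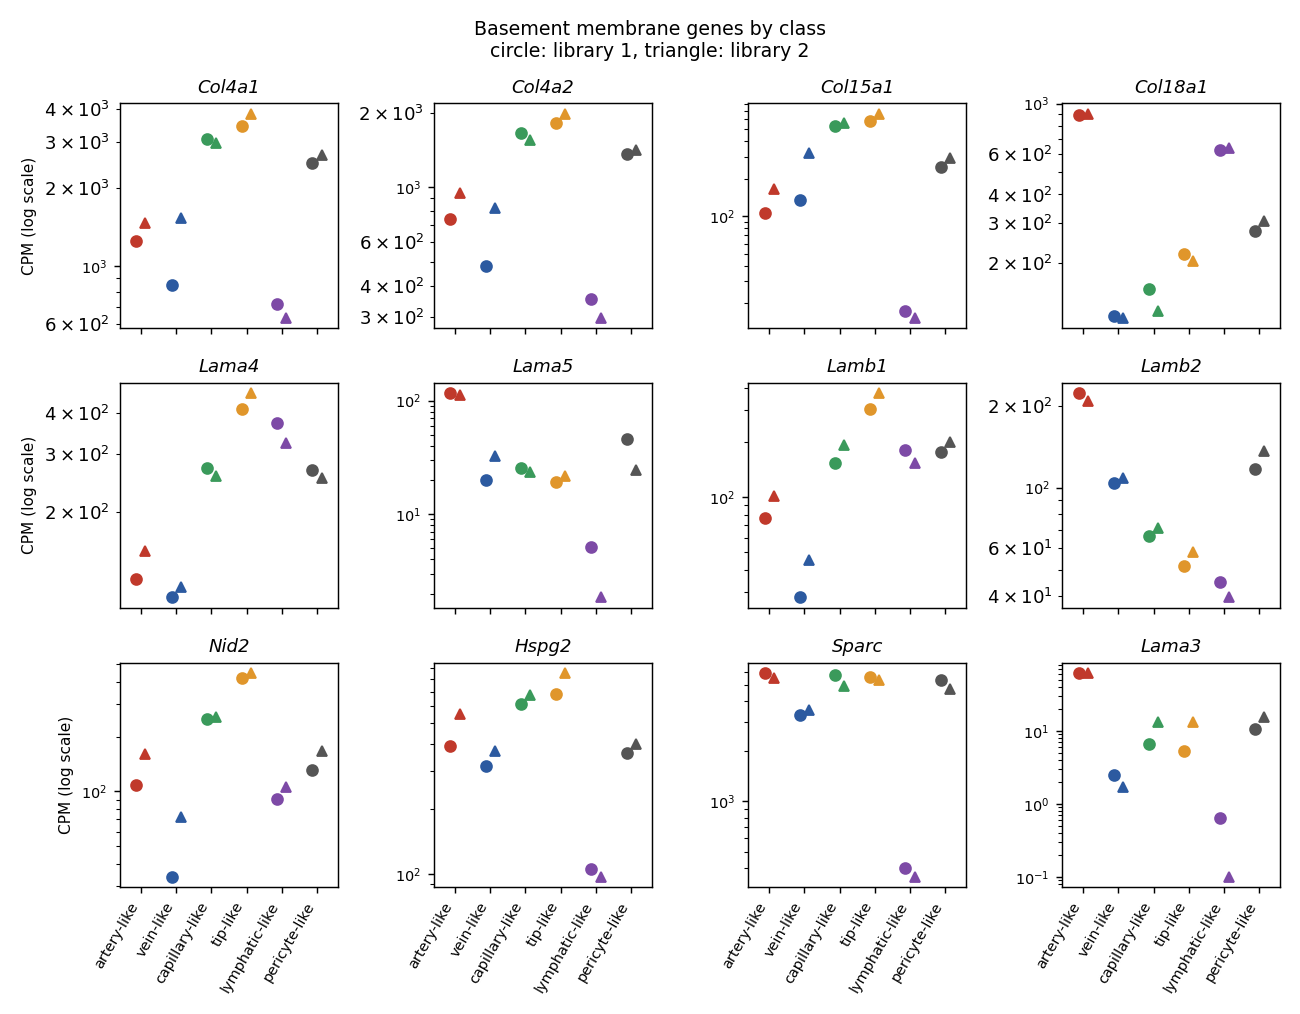
Each panel is 1 gene, with CPM on a log axis for the 6 classes, a circle for library 1 and a triangle for library 2. Col4a1, Col4a2, Lama4, Lamb1 and Nid2 peak in tip-like cells, Lama5, Lamb2, Lama3 and Col18a1 in artery-like cells, and Sparc, Hspg2 and Col15a1 are lowest in lymphatic-like cells. A sum with no UMI is drawn at 0.1 CPM.

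All 9 integrin genes tested differed in lymphatic-like cells, 3 higher and 6 lower, where 42.6% of all genes did. In pericyte-like cells 5 differed (20% of all genes), in capillary-like cells 5 (12.2%) and between artery-like and vein-like cells 3 (18.4%). The lymphatic calls of Itgb4 (lost under 3 of the alternatives tried) and Itgb1 (lost without the library block) and 4 of the 5 pericyte calls, all but that of Itga1, did not hold throughout. Itga1, the alpha 1 chain of a collagen and laminin receptor, stood at 427 and 404 CPM in pericyte-like, 151 and 153 in tip-like, 108 and 95.1 in capillary-like, 116 and 85.8 in artery-like, 29.4 and 39.2 in vein-like and 16.03 and 11.2 CPM in lymphatic-like cells. Pericyte-like sums lay above every other and lymphatic-like sums below. Itga1 was higher in pericyte-like cells (log2 difference 2.78 ± 0.10, adjusted p = 3.27e-12, and 3.50 (adjusted p = 1.50e-12) without Cdh5 UMIs), higher in artery-like than vein-like cells (log2 difference 1.51 ± 0.19, adjusted p = 2.01e-05), higher in capillary-like cells (log2 difference 0.78 ± 0.15, adjusted p = 0.00175) and lower in lymphatic-like cells (log2 difference -2.73 ± 0.16, adjusted p = 5.22e-10). Itga2, the other collagen-binding alpha chain of the set, stood between 30.1 and 58.7 CPM in the blood classes and at 2.57 and 1.57 CPM in lymphatic-like cells, a difference that passed (log2 difference -4.24 ± 0.25, adjusted p = 7.31e-10).

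Itgav, the alpha chain of RGD-binding receptors, and Itga9, known from lymphatic valves, were highest in lymphatic-like cells among endothelium. Itgav stood at 44.6 and 60.5 CPM in lymphatic-like, 23.9 and 45.5 in pericyte-like, 13.2 and 17.1 in tip-like, 11.7 and 15.95 in artery-like, 7.84 and 6.69 in capillary-like and 1.25 and 3.36 CPM in vein-like cells. Itgav was higher in lymphatic-like cells (log2 difference 2.74 ± 0.16, adjusted p = 5.39e-10), in artery-like than vein-like cells (log2 difference 2.52 ± 0.43, adjusted p = 0.000530, lost with a stricter cell filter) and in pericyte-like cells (log2 difference 1.60 ± 0.19, adjusted p = 1.12e-05, and 2.20 (adjusted p = 0.000245) without Cdh5 UMIs), the latter also lost with a stricter cell filter. Itga9 stood at 82.4 and 94.1 CPM in lymphatic-like cells, with no overlap with the 40.3 and 44.4 in tip-like, 46.2 and 34.7 in vein-like, 46.7 and 23.1 in artery-like and 20.3 and 19.6 CPM in capillary-like cells. It was higher in lymphatic-like cells (log2 difference 1.41 ± 0.14, adjusted p = 6.19e-07) and lower in pericyte-like cells (log2 difference -0.94 ± 0.23, adjusted p = 0.00741, -2.83 (adjusted p = 0.0150) without Cdh5 UMIs, and lost with a stricter cell filter). Itgb3, the beta chain that partners Itgav in sprouting vessels, had at most 5.13 CPM in any sum and was not tested.

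Itga6 and Itgb4, which join as the laminin receptor alpha 6 beta 4, did not follow each other. Itga6 stood at 388 and 339.7 CPM in capillary-like, 309 and 336 in tip-like, 272 and 327 in vein-like, 146 and 185 in artery-like and 172 and 137 CPM in lymphatic-like cells. Itgb4 stood at 118 and 90.8 CPM in artery-like, 127 and 71.7 in vein-like, 68.9 and 38.3 in lymphatic-like, 13.1 and 17.7 in capillary-like and 14.9 and 7.06 CPM in tip-like cells. Itga6 was lower in artery-like than vein-like cells (log2 difference -0.87 ± 0.15, adjusted p = 0.000415) and higher in capillary-like cells (log2 difference 0.70 ± 0.12, adjusted p = 0.000824), where Itgb4 was lower (log2 difference -2.64 ± 0.22, adjusted p = 7.84e-07). The UMI ratio of Itga6 to Itgb4 was 1.24 and 2.04 in artery-like, 2.15 and 4.56 in vein-like and 29.7 and 19.2 in capillary-like cells. Itgb4 was lower in pericyte-like cells (log2 difference -0.72 ± 0.22, adjusted p = 0.0257, lost without the library block and with DESeq2), and had no UMI in those without Cdh5. Itga5, the fibronectin receptor chain, was highest in artery-like cells at 111 and 103 CPM against 83.7 and 72.8 in vein-like cells, which just missed the threshold (log2 difference 0.43 ± 0.15, adjusted p = 0.0511), and was lower in capillary-like cells (log2 difference -0.50 ± 0.13, adjusted p = 0.0207, lost under 4 of the alternatives tried, DESeq2 among them). Itgb1, the common beta chain, ran only from 525 and 453 CPM in lymphatic-like to 808 and 611 CPM in pericyte-like cells, and neighbouring classes overlapped throughout. Itga3 was low, at 21.2 and 20.2 CPM in vein-like cells and at most 8.57 CPM elsewhere. None of the 9 passed in tip-like against capillary-like cells, where the smallest adjusted p belonged to Itga9 (log2 difference 1.08 ± 0.28, adjusted p = 0.0629), Itga1 (log2 difference 0.57 ± 0.16, adjusted p = 0.0853), Itgav (log2 difference 1.06 ± 0.33, adjusted p = 0.150) and Itgb1 (log2 difference 0.33 ± 0.12, adjusted p = 0.209).

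**Figure D4:**
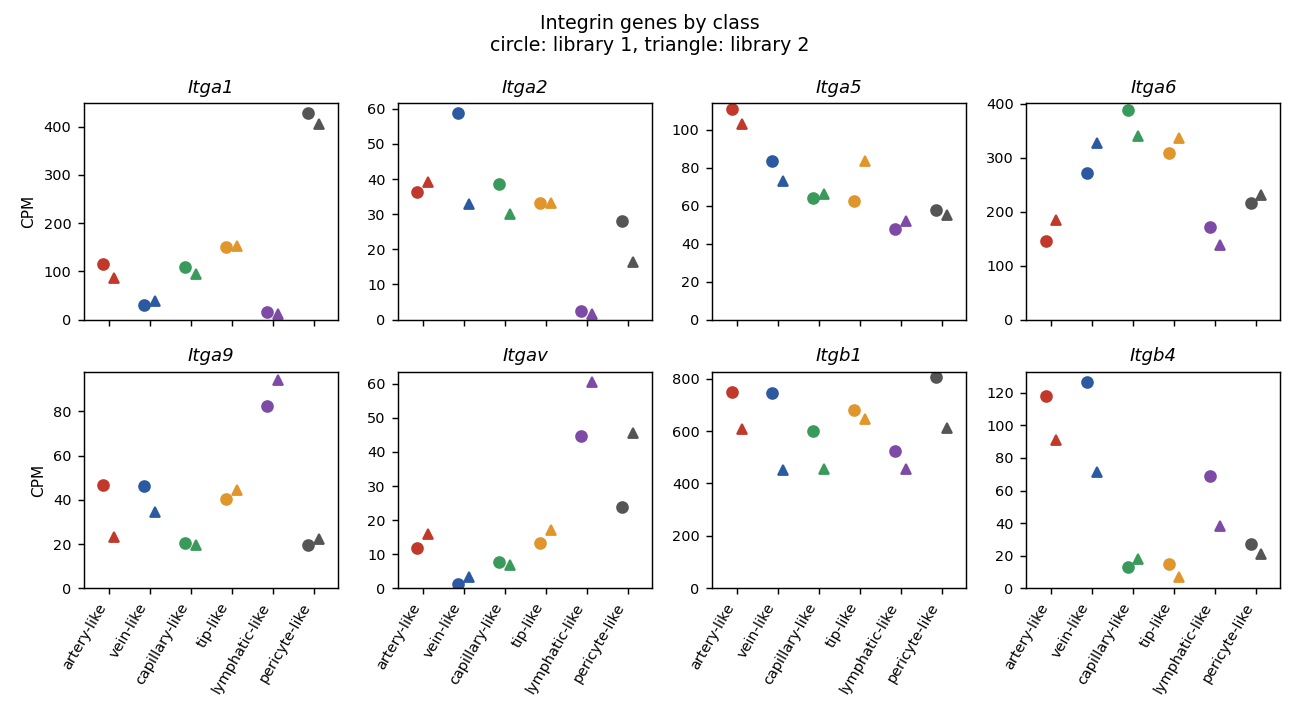
Each panel is 1 integrin gene, with CPM on a linear axis from 0 for the 6 classes, a circle for library 1 and a triangle for library 2. Itga1 is highest in pericyte-like cells, Itgav and Itga9 in lymphatic-like cells, Itga6 in capillary-like cells, and Itgb4 is low in capillary-like and tip-like cells.

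By the mean of the libraries, each protease was lowest in capillary-like or lymphatic-like cells. Mmp2, a secreted gelatinase, stood at 152 and 56 CPM in vein-like, 55.98 and 40 in pericyte-like, 56.5 and 19.8 in artery-like and 33.3 and 29.3 in lymphatic-like cells, and at no more than 2.63 CPM in tip-like and capillary-like cells. Library 1 was the higher in both large-vessel classes. Mmp2 was lower in artery-like than vein-like cells (log2 difference -1.44 ± 0.26, adjusted p = 0.000734, lost with a stricter cell filter), lower in capillary-like cells (log2 difference -5.66 ± 0.50, adjusted p = 1.51e-06, against 4 capillary-like UMIs) and higher in pericyte-like cells (log2 difference 1.88 ± 0.29, adjusted p = 0.000119, and 2.66 (adjusted p = 0.000913) without Cdh5 UMIs). Mmp14, the membrane-bound protease that activates Mmp2 together with Timp2, stood at 235 and 275 CPM in lymphatic-like, 154 and 114 in artery-like, 133 and 132 in pericyte-like, 105 and 88.8 in tip-like, 89.9 and 58.2 in vein-like and 78.4 and 57.8 CPM in capillary-like cells. Mmp14 was higher in lymphatic-like cells (log2 difference 1.5 ± 0.11, adjusted p = 1.54e-08) and in artery-like than vein-like cells (log2 difference 0.85 ± 0.18, adjusted p = 0.00320, lost with a stricter cell filter). Mmp15, another membrane-bound protease, stood at 22.8 and 27.04 CPM in lymphatic-like cells and between 58.7 and 88.9 CPM in the other classes, whose levels overlapped, and was lower in lymphatic-like cells (log2 difference -1.67 ± 0.13, adjusted p = 2.36e-08).

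The 3 Adamts genes encode secreted proteases that cut proteoglycans such as versican. Adamts1 stood at 333 and 462 CPM in artery-like, 332 and 507 in vein-like, 285 and 488 in pericyte-like, 137 and 322 in capillary-like, 115 and 171 in tip-like and 138 and 93.5 CPM in lymphatic-like cells. Adamts4 stood at 46.2 and 152 CPM in vein-like and 70.8 and 139 in pericyte-like cells, against 12.3 and 18.7 in artery-like and 9.94 and 10.96 CPM in lymphatic-like cells. These genes differed between the libraries. Library 2 was the higher in all 5 classes other than lymphatic-like, by 1.39 to 2.35 times for Adamts1, 1.35 to 3.51 times for Adamts4 and 1.25 to 1.79 times for Adamts9, while the median such ratio over the set was 1.02 to 1.14 in these classes. Adamts4 was lower in artery-like than vein-like cells (log2 difference -2.64 ± 0.33, adjusted p = 2.24e-05), with -3.05 and -1.88 without each library, and higher in pericyte-like cells (log2 difference 1.75 ± 0.20, adjusted p = 7.07e-06, and 1.52 (adjusted p = 0.0162) without Cdh5 UMIs). Adamts1 was lower in capillary-like cells (log2 difference -0.87 ± 0.22, adjusted p = 0.0167, lost without the library block and with a stricter cell filter). Adamts9, at 202 and 349 CPM in vein-like and 42.3 and 19.4 CPM in lymphatic-like cells, was lower in lymphatic-like than blood cells (log2 difference -2.70 ± 0.28, adjusted p = 5.53e-07), with -3.57 and -1.80 without each library.

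The 4 Timp inhibitors peaked in 3 classes, Timp4 in capillary-like, Timp2 in lymphatic-like, and Timp1 and Timp3 in pericyte-like cells. Timp4 (chr6:115241892-115252205, minus strand) stood at 92.1 and 126 CPM in capillary-like cells, against 15.98 and 11 in artery-like, 11.4 and 10.1 in tip-like, 1.25 and 15.1 in vein-like and 0.962 and 2.13 CPM in lymphatic-like cells. Capillary-like sums lay above all others. Timp4 was higher in capillary-like cells than in the mean of arteries and veins (log2 difference 3.34 ± 0.30, adjusted p = 1.51e-06), with 3.25 and 4.24 without each library, and it was the 1 gene of the set lower in tip-like than capillary-like cells (log2 difference -3.41 ± 0.38, adjusted p = 0.000202). Pericyte-like cells had 34.3 and 25.9 CPM where they carried a Cdh5 UMI and no UMI of Timp4 where they did not. Timp2 stood at 556 and 574 CPM in lymphatic-like, 279 and 194 in vein-like, 186 and 167 in artery-like, 153 and 131 in pericyte-like, 79.1 and 96.99 in capillary-like and 70.1 and 64.6 CPM in tip-like cells, with no overlap between neighbours. Timp2 was higher in lymphatic-like cells (log2 difference 2.15 ± 0.10, adjusted p = 2.47e-11) and lower in capillary-like cells (log2 difference -1.20 ± 0.14, adjusted p = 1.62e-05). Timp3, which binds to the matrix, was highest in pericyte-like cells at 924 and 1149 CPM and stood at 562 and 596 in lymphatic-like, 564 and 574 in artery-like, 333 and 484 in capillary-like, 337 and 452 in vein-like and 268 and 358 CPM in tip-like cells. Pericyte-like cells were higher (log2 difference 1.20 ± 0.08, adjusted p = 1.39e-08, and 1.81 (adjusted p = 1.03e-10) without Cdh5 UMIs). Timp1 stood at 31.3 and 47.1 CPM in pericyte-like cells, and its artery-like sums of 7.99 and 9.35 CPM were the lowest, below the 27.5 and 30.2 CPM of vein-like cells (log2 difference -1.75 ± 0.26, adjusted p = 0.000152). It was higher in pericyte-like cells (log2 difference 0.93 ± 0.16, adjusted p = 0.000381, 2.17 (adjusted p = 7.35e-06) without Cdh5 UMIs, and lost with a stricter cell filter). Timp1, Timp3 (chr10:86300372-86349506, plus strand) and Timp4 lie within synapsin genes of the opposite strand per GENCODE vM21. The 3' chemistry marks strand, and how strand entered the counting is not stated by the labels.

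Tip-like and capillary-like cells differed in no other protease or inhibitor by the test. The smallest adjusted p after Timp4 belonged to Timp3 (log2 difference -0.40 ± 0.12, adjusted p = 0.142), Mmp14 (log2 difference 0.50 ± 0.19, adjusted p = 0.266) and Adamts1 (log2 difference -0.67 ± 0.27, adjusted p = 0.294). Over the 10 proteases and inhibitors, 2 were higher and 4 lower in artery-like than vein-like cells (9.30% and 9.13% of all genes), 1 higher and 4 lower in capillary-like cells (6.20% and 5.99%), 4 higher and 5 lower in lymphatic-like cells (21.8% and 20.8%), and 6 higher in pericyte-like cells (13.2%). At least 1 alternative lost the calls of Mmp2, Mmp14, Timp2 and Timp3 in the first of these contrasts, of Adamts1 and Mmp14 in the second, of Timp3 in the third and of Adamts1, Timp1 and Timp4 in the last.

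**Figure D5:**
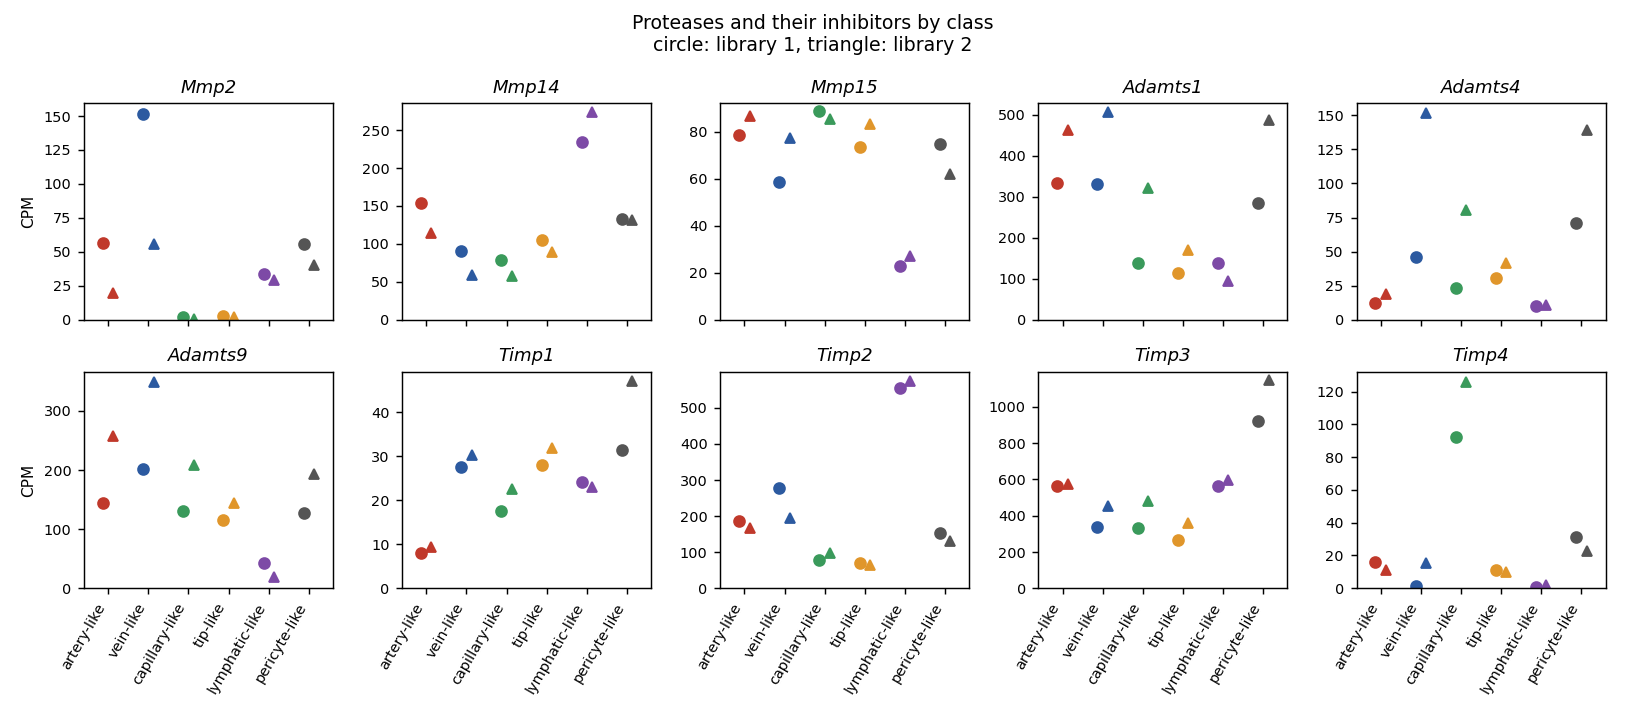
Each panel is 1 protease or inhibitor gene, with CPM on a linear axis from 0 for the 6 classes, a circle for library 1 and a triangle for library 2. Timp4 stands out in capillary-like cells, Timp2 and Mmp14 in lymphatic-like cells and Timp3 in pericyte-like cells, and the triangles lie above the circles for Adamts1, Adamts4 and Adamts9 outside lymphatic-like cells.

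Splits within 2 classes changed few genes of the set. Among lymphatic-like cells, 31 and 33 carried at least 4 of 5 lymphatic valve markers. Itgb4 stood at 217 and 129 CPM in these valve-like cells and at 48.8 and 30.8 CPM in the other lymphatic-like cells, and was the 1 gene of the set that differed (log2 difference 2.04 ± 0.19, adjusted p = 4.19e-06), where 1.30% of all genes did and 0.688% were higher. Its partner Itga6 stood at 243 and 212 against 163 and 131 CPM and did not pass (log2 difference 0.56 ± 0.16, adjusted p = 0.107). Itga9, known from work on valves, stood at 80.2 and 78.7 CPM in valve-like and 82.7 and 95.3 CPM in other lymphatic-like cells, close below in both libraries, and did not pass (log2 difference -0.26 ± 0.24, adjusted p = 0.730). The smallest adjusted p in the other families belonged to Nid2 (log2 difference -1.0 ± 0.26, adjusted p = 0.0636), Col13a1 (log2 difference 3.37 ± 0.89, adjusted p = 0.0702), Lama5 (log2 difference 2.90 ± 0.76, adjusted p = 0.0707) and Timp3 (log2 difference -0.54 ± 0.16, adjusted p = 0.110), none of which passed. Valve-like sums held 374070 and 533815 UMIs, so low genes could not be resolved.

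Capillary-like cells were split by a UMI of Lrat, an enzyme of vitamin A storage, into 54 and 88 cells with and 111 and 111 cells without it. Col13a1 stood at 104 and 145 CPM with Lrat and 33.8 and 66.1 CPM without it, higher in both libraries (log2 difference 1.31 ± 0.27, adjusted p = 0.0244), where 0.260% of all genes were higher and 0.465% lower. That call was lost without the library block and with DESeq2. Timp4 ran the other way, at 34.2 and 85.3 CPM with and 128 and 173 CPM without Lrat, which did not pass (log2 difference -1.28 ± 0.33, adjusted p = 0.101). Itga1 stood at 70.1 and 76.4 against 132 and 117 CPM and did not pass either (log2 difference -0.75 ± 0.19, adjusted p = 0.0939). This split was chosen after the number of cells was seen, since cells with Car4 and without Lrat were too few.

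Other matrix genes were read from 6 lists that hold 93 genes and were chosen by function. Earlier results of these data were known at that time, so the list counts are not independent of the data. Of 7 other collagens tested, 5 were higher and 0 lower in pericyte-like cells (13.2% and 6.74% of all genes), led by Col6a3, the large chain of collagen VI, at 291 and 433 CPM (log2 difference 9.51 ± 0.16, adjusted p = 1.24e-15). In lymphatic-like cells 3 were higher and 1 lower (21.8% and 20.8% of all genes), led by Col23a1, a transmembrane collagen, at 53.9 and 51.4 CPM against at most 4.30 CPM in blood classes (log2 difference 6.24 ± 0.24, adjusted p = 1.30e-11). Of 8 other basement membrane genes tested, Fn1 (fibronectin) stood at 767 and 636 CPM in artery-like and 488 and 310.1 in lymphatic-like cells, against 41.8 and 15.1 in vein-like and 18.9 and 15.8 CPM in capillary-like cells. Fn1 was higher in artery-like than vein-like cells (log2 difference 4.67 ± 0.21, adjusted p = 6.10e-10). Bcam, a receptor for laminin alpha 5, was lower in lymphatic-like cells at 20.8 and 9.11 CPM against 364 and 284 CPM in artery-like cells (log2 difference -4.03 ± 0.17, adjusted p = 1.83e-11). Of 13 collagen processing genes tested, Loxl2, a collagen crosslinking enzyme, was higher in lymphatic-like cells at 86.9 and 79.6 CPM against at most 6.14 CPM in blood classes (log2 difference 4.67 ± 0.19, adjusted p = 9.09e-12). Pcolce, which speeds the trimming of procollagen, was lower there (log2 difference -5.50 ± 0.31, adjusted p = 3.42e-10) and higher in pericyte-like cells (log2 difference 3.91 ± 0.13, adjusted p = 1.18e-12).

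Of 5 other integrins tested, 3 were higher and 0 lower in pericyte-like cells (13.2% and 6.74% of all genes). Itga7, a laminin receptor chain of muscle, stood at 101 and 93.7 CPM in them and had no UMI in any endothelial sum. Of 14 integrin adaptors tested, 8 were higher and 3 lower in pericyte-like cells, set against the same shares, with Tns3 (log2 difference 1.97 ± 0.19, adjusted p = 9.23e-07) and Vcl (log2 difference 1.04 ± 0.11, adjusted p = 1.76e-06) leading, and 4 higher and 7 lower in lymphatic-like cells (21.8% and 20.8%). Tns3 was also the 1 adaptor higher in tip-like than capillary-like cells (log2 difference 1.15 ± 0.24, adjusted p = 0.0207). Of 13 other metalloproteases and inhibitors tested, 6 were higher and 4 lower in artery-like than vein-like cells (9.30% and 9.13% of all genes), led by Adamts18 (log2 difference -5.17 ± 0.48, adjusted p = 1.13e-06) and Adamts5 (log2 difference -3.79 ± 0.40, adjusted p = 4.22e-06), both lower in artery-like cells. In tip-like against capillary-like cells Adam19 (log2 difference 0.90 ± 0.18, adjusted p = 0.0176) and Adamts7 (log2 difference 0.98 ± 0.23, adjusted p = 0.0374) were higher. Single genes of the 6 lists were not followed under the alternatives, nor in pericyte-like cells without a Cdh5 UMI. Over all genes, the calls in tip-like against capillary-like cells fell from 201 to 31 without the library block.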

How the data were processed

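The deposited gene matrices give, for each cell, unnormalized UMI counts, which the authors made against mm10. The submitters' processing notes name Cell Ranger. Per the file headers the software version is 3.0.2. Seurat 3.0.2 is named there with no role. Alignment settings are not stated by the labels, and the antibody tag libraries were not used. Cells with fewer than 500 genes, more than 10% mitochondrial UMIs or a Scrublet doublet call (0.347% of 3750) were left out, and 3 barcodes were shared by the libraries.

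Cells were gated on markers outside the 43 genes, in scanpy 1.11.5. Pericyte-like cells had at least 5 of 10 pericyte markers, endothelial cells at least 4 of 8 endothelial markers, lymphatic-like cells at least 3 of 6 lymphatic markers, and blood classes a lead of 0.5 SD of their own marker score. Endothelial cells could carry at most 1 pericyte marker, while pericyte-like cells had no limit on endothelial markers. Cells with at least 3 fibroblast, keratinocyte or immune markers or at least 4 erythroid markers were left out as other cell types (43 and 61 cells). UMIs were summed per class and library and fitted over all genes with edgeR 4.0.16 (TMM, low-count filter, quasi-likelihood test, library as a block) in R 4.3.3. Of all genes, 10933 were tested in the fit of 6 classes, with 5 residual degrees of freedom, and 10758 in the fit with split classes. Adjusted p is Benjamini-Hochberg over all of these, with 0.05 as the threshold. The ± is the standard error. The block holds because every class of a library comes from the same animals. Alternatives were no block, DESeq2 1.42.0, RLE scaling, no low-count filter, other gates and cell filters, clusters in place of gates, and single libraries. The edgeR test was also run on simulated counts with known differences, and its outcome is not given here. The members and lists were chosen with earlier results of these data known. Full statistics went to up to 4 members of each family with the smallest adjusted p, and up to 2 genes of each other list. No correction for free RNA was made. In summed counts, fewer cells expressing a gene and less RNA per cell cannot be told apart.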

Additional observations from a re-analysis of the deposited data

How the results depend on the processing

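Of 1324 values of single genes under 12 alternatives, 1201 kept their direction and their side of the threshold or moved by less than 1 SD, 98 no longer passed, 21 moved and 4 reversed. For single libraries the SD is that of the 2 single-library values, so it widens as the libraries disagree. The 110 and 106 values kept on that ground, without library 1 and without library 2, therefore say little about stability. With RLE scaling every call of a single gene was kept. Without the library block, that is without pairing the classes of a library, genes of the set lower in pericyte-like cells went from 3 to 1, genes lower in artery-like cells from 8 to 5, genes higher in tip-like cells from 5 to 0 and genes higher with Lrat from 1 to 0, and all genes called from 201 to 31 in tip-like, from 140 to 41 in valve-like and from 78 to 23 in Lrat cells. No other count over the set moved by more than 1.5 times without the block. DESeq2 called 1215 genes in pericyte-like, 1041 in artery-like against vein-like, 674 in capillary-like, 112 in tip-like, 2729 in lymphatic-like and 3235 among the 5 endothelial classes, with 1 gene of the set lower in pericyte-like and 5 in artery-like cells, 3 higher in valve-like and 0 with Lrat. The stricter cell filter (1000 genes, 5% mitochondrial) gave 776, 937, 486, 3036 and 3228 genes in the same order without tip-like cells, 1 gene of the set lower in pericyte-like and 4 in artery-like cells, and 3 higher and 2 lower in tip-like cells. Without the low-count filter 450 genes were called in tip-like cells (8 of the set higher and 3 lower), 414 in valve-like cells (5 higher and 6 lower) and 233 with Lrat (3 higher and 3 lower). Classes from Leiden clusters gave 802 genes in tip-like against capillary-like cells, 1 of the set higher and 2 lower. The causes of these changes were not tested, apart from the number of genes tested, which the missing filter raises. Pericyte-like cells without a Cdh5 UMI gave 11 genes of the set lower, and reversed Col15a1 to -3.22, Lama3 to -6.41 and Timp4 to -7.64. Of these, Col15a1 passed, on 6 and 1 UMIs, and Lama3 and Timp4 had no UMI. Between artery-like and vein-like cells, Col1a2 was at 5.63 without library 2 and reversed to -0.048 without library 1. Single libraries give values and no test. The comparison of Car4 with Lrat capillary-like cells was not run, because library 2 held 13 cells with Car4 and no Lrat, and the split by Lrat replaced it after the data were seen. Depth limits what can be said of Itgb3 and of genes near 3 UMIs a sum, such as Col1a1 in endothelium.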
